A study of Mus musculus with 30 samples.

Results

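Nonsense-mediated decay (NMD) is carried out by a small set of conserved factors, and the mRNAs of 9 of them were followed here in mouse spermatogonial stem cell (SSC) lines, the cultured counterparts of the cells that sustain sperm production. The 9 genes were listed by name and not picked by a measured value. Earlier results of these data were known when the list was chosen. They are the UPF genes *Upf1*, *Upf2*, *Upf3a* and *Upf3b* and the SMG genes *Smg1*, *Smg5*, *Smg6*, *Smg8* and *Smg9*. All 9 were among the 13904 genes with an RNA-seq level, and 7 of them, all but *Upf3a* and *Smg9*, were among the 5806 transcripts with an mRNA half-life. Of all genes with a level, 37.1% had a half-life.

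The lines were derived from testes at postnatal day 7 and were used to study the RNA targets of NANOS2, a germline RNA-binding protein. The TAG/+ line, line 4, carried 1 *Nanos2* TAG allele beside the wild-type allele, and the TAG/TAG line, line 5, carried the TAG allele in both copies. The tag adds V5, Myc, His and EGFP sequences to the N-terminus of NANOS2, so both lines made the tagged protein and neither lacked NANOS2. Both lines grew on fibroblast feeders, from which the SSCs were separated before RNA isolation. RNA-seq of ribosomal RNA-depleted total RNA gave 1 library for each line, and the labels name QIAzol as the reagent for the TAG/+ library and Trizol for the TAG/TAG library, while the methods of the study name QIAzol for RNA-seq in general. SLAM-seq, in which RNA labelled with 4-thiouridine is followed after the label is removed, gave 12 libraries for each line (6 times of chase, 2 technical replicates each) and from them 1 half-life per transcript and line. Each genotype was thus 1 culture line, and genotype, line and, if the labels hold, the RNA-seq reagent cannot be told apart. No test between the lines was possible, and the values are given without p-values.

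NMD removes mRNAs on which translation ends too early, and it also sets the level of many normal mRNAs that have an upstream reading frame, a long 3′ untranslated region (UTR) or an intron after the stop codon. The RNA helicase UPF1 is brought to the terminating ribosome, UPF2 and UPF3 proteins link it to the exon junction complex left on the mRNA by splicing, and the kinase SMG1, held in check by SMG8 and SMG9, phosphorylates it. Phosphorylated UPF1 then recruits SMG6, which cuts the mRNA, or SMG5, which helps to bring in deadenylation and decapping enzymes. In other cells the mRNAs of several of these factors are themselves degraded by NMD, which forms a feedback loop, and in the mouse testis UPF2 is needed to keep germ cells.

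Whole reads could be recovered from the FPKM values (fragments per kilobase of gene length, scaled to the read depth of the library), and the depth was 10908790 reads in the TAG/+ library and 11738620 reads in the TAG/TAG library. The 95% intervals given with an FPKM value or a ratio are exact intervals on these reads and cover counting error only. The median FPKM of all genes was 10.2 and 10.5, and the median half-life was 224 and 226 min. Here and below the TAG/+ value comes first where 2 values are given. Of the 12 germline and undifferentiated spermatogonia markers listed, 11 had a level, and their summed FPKM was 1570 and 1812. Of these 11 markers 6 were lower and 5 higher in the TAG/TAG library, and *Ret* (73.2 and 181) and *Etv5* (45.98 and 178) were past 2-fold. Fibroblast feeder markers (9 of 10 with a level) summed to 323 and 406, with 8 of the 9 higher in the TAG/TAG library and none at 0. Testis soma markers (4 of 6 with a level) summed to 9.97 and 27.7. Of these 4 soma markers 3 were higher in the TAG/TAG library, *Wt1* most (2.51 and 19.6), and *Star* was lower (4.62 and 1.20). Markers of differentiating spermatogonia (4 of 5 with a level) summed to 237 and 172, with all 4 lower in the TAG/TAG library. How far these cell fractions enter the levels below was not tested, and in bulk RNA fewer cells of a type and less RNA per cell cannot be told apart.

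The study described a short sequence motif for NANOS2 binding in 3′ UTRs. Its 7-base variants are AUGAAAU, the variants with 1 other letter, which are AUGAAUU as well as AUUAAAU, and the variant with both of these letters, AUUAAUU. They were searched in the 3′ UTR of the principal coding transcript of each gene, on the sense strand only. *Smg1* and *Smg6* were the 2 members with a match, and the sites are shown because they are the places where these mRNAs share the letters of that motif. The capitals mark the match, the surrounding letters are the mRNA strand written as DNA, and the coordinates are those of the match in GRCm38.
Smg1 site 1, chr7:118135010-118135016, minus strand: ggctatgctgtATGAATTtcagaaatgga
Smg1 site 2, chr7:118133203-118133209, minus strand: gggaatgttttATGAAATcatgtagagtg
Smg1 site 3, chr7:118131358-118131364, minus strand: gtaaagattgtATGAAATacctgtttttc
Smg6 site 1, chr11:75164116-75164122, plus strand: cccgaccaggaATGAATTccttcagtcta
Smg6 site 2, chr11:75164438-75164444, plus strand: aatttttagttATGAAATataa

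All 3 *Smg1* sites lay in the 3′ UTR part of the last exon, exon 63, at 525, 2332 and 4177 nt after the stop codon of a 4233-nt 3′ UTR. Both *Smg6* sites lay in the last exon, exon 19, at 1166 and 1488 nt of a 1498-nt 3′ UTR, and the second one ended a few bases before the 3′ end of the annotated transcript. Of the 9 members 22.2% held a match, against 38.1% of the 3′ UTRs of 12538 coding genes with a level. A match is more frequent in longer 3′ UTRs, and among 3′ UTRs within 20% of the length of that of *Smg1* 78.9% held one (925 genes), while for the length of *Smg6* it was 45.1% (1746 genes). A match is a description of the letters and no measure of binding.

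The UPF genes differed widely in level, and each was lower in the TAG/TAG library. *Upf1*, the helicase at the centre of the pathway (ENSMUSG00000058301, GRCm38 chr8:70331525-70353278, minus strand), was at an FPKM of 43.6 (95% interval 41.8 to 45.5, 2174 reads) in the TAG/+ library and 38.6 (36.9 to 40.3, 2069 reads) in the TAG/TAG library. This was a ratio of 0.884 (0.832 to 0.940), TAG/TAG over TAG/+, and 79.0% of all genes differed more between the libraries. *Upf2*, which joins UPF1 to the UPF3 proteins (ENSMUSG00000043241, chr2:5951469-6056703, plus strand), was at 12.4 (11.2 to 13.7, 384 reads) and 9.09 (8.10 to 10.2, 304 reads), a ratio of 0.736 (0.631 to 0.857). The adaptor stood near the median of all genes, and *Upf1* was 3.53 times (3.17 to 3.94) and 4.24 times (3.76 to 4.80) its level. Per length of the principal transcript these ratios were 6.34 and 7.63.

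The 2 UPF3 paralogues bind the exon junction complex, and in this pair the autosomal gene had the higher level. *Upf3a* (ENSMUSG00000038398, chr8:13785615-13799193, plus strand) was at 8.23 (7.14 to 9.43, 206 reads) and 6.57 (5.64 to 7.61, 177 reads), a ratio of 0.798 (0.649 to 0.981). The X-linked *Upf3b* (ENSMUSG00000036572, chrX:37091678-37110322, minus strand) was at 1.21 (0.784 to 1.79, 25 reads) and 0.855 (0.515 to 1.34, 19 reads). With so few reads its ratio of 0.706 had an interval from 0.368 to 1.34, and a difference between the lines was not detectable at this depth. *Upf3a* was 6.79 times (4.47 to 10.7) the level of *Upf3b* in the TAG/+ library and 7.68 times (4.77 to 13.1) in the TAG/TAG library. *Upf3b* was the least abundant member in both lines, with 15.1% and 9.08% of all genes below it.

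**Figure D1:**
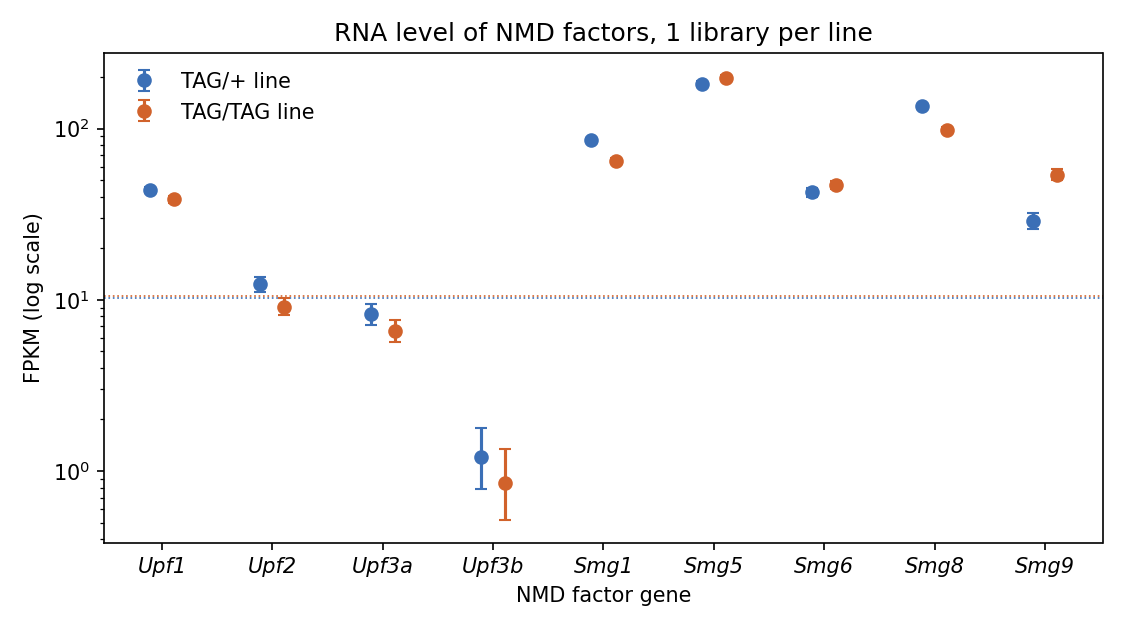
RNA level (FPKM, log axis) of the 9 NMD factor genes in the TAG/+ library (blue) and the TAG/TAG library (orange), 1 library per line, with 95% counting intervals as bars and the median of all genes in each library as dotted lines (10.2 and 10.5). *Smg5* is highest at 182 and 198, *Upf3b* is lowest at 1.21 and 0.855, and the 5 SMG genes and *Upf1* lie above the median in both libraries.

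The kinase and its regulators did not differ between the lines in the same direction. *Smg1*, the kinase that phosphorylates UPF1 (ENSMUSG00000030655, chr7:118131308-118243670, minus strand), was at 85.9 (83.3 to 88.6, 4057 reads) and 64.8 (62.6 to 67.1, 3292 reads), a ratio of 0.754 (0.720 to 0.790). *Smg8*, whose product keeps the kinase inactive (ENSMUSG00000020495, chr11:87077732-87086774, minus strand), was at 135 (130.5 to 139.8, 3228 reads) and 98.4 (94.6 to 102, 2529 reads), a ratio of 0.728 (0.691 to 0.767). Both were lower in the TAG/TAG library, and the level of *Smg1* relative to *Smg8* was 0.636 (0.607 to 0.666) and 0.659 (0.625 to 0.694), intervals that overlap. Per length of the principal transcript it was 0.260 and 0.269.

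*Smg9*, which encodes the partner of SMG8 (ENSMUSG00000002210, chr7:24399619-24422778, plus strand), differed the other way. It was at 29.0 (26.0 to 32.3, 343 reads) in the TAG/+ library and 53.9 (49.9 to 58.0, 685 reads) in the TAG/TAG library, a ratio of 1.86 (1.63 to 2.12). The level of *Smg8* relative to *Smg9* was therefore 4.66 (4.16 to 5.22) in the TAG/+ library and 1.83 (1.68 to 1.99) in the TAG/TAG library. Among the members *Smg9* had the largest ratio between the lines, but 27.0% of all genes differed more.

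The effectors that act on phosphorylated UPF1 were slightly higher in the TAG/TAG library. *Smg5* (ENSMUSG00000001415, chr3:88336260-88362338, plus strand) was at 182 (175.9 to 189, 2867 reads) and 198 (191 to 205, 3348 reads), a ratio of 1.09 (1.03 to 1.14). *Smg6*, which encodes the endonuclease (ENSMUSG00000038290, chr11:74925823-75164448, plus strand), was at 42.3 (39.8 to 45.0, 1075 reads) and 46.9 (44.3 to 49.5, 1280 reads), a ratio of 1.11 (1.02 to 1.20). These were among the smallest differences in the set, and 85.7% and 82.7% of all genes differed more. The level of *Smg5* relative to *Smg6* was 4.31 (4.02 to 4.63) in the TAG/+ library and 4.23 (3.96 to 4.51) in the TAG/TAG library, intervals that overlap.

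Over the 9 members 6 were lower and 3 higher in the TAG/TAG library, and 49.5% of all genes were lower. The median log2 ratio, on the scale of log2(FPKM + 0.1), was -0.32 for the members and 0.01 for all genes, and among genes with an FPKM of at least 1 in both libraries the median was -0.02. The lower members were the 4 UPF genes, *Smg1* and *Smg8*, and the higher ones were *Smg5*, *Smg6* and *Smg9*. The counting interval of the ratio left out 1 for 8 of 9 members, all but *Upf3b*, but this was also so for 68.4% of the 13884 genes with recovered reads, and it says nothing of how far 2 libraries of the same line would differ. None of the 9 reached a 2-fold difference, against a background of 23.1% of all genes and 14.5% of the genes with an FPKM of at least 1 in both libraries. At 1.5-fold *Smg9* alone passed, against 42.2% of all genes in either direction and 22.8% in its direction. The summed FPKM of the 9 mRNAs was 540.3 in the TAG/+ library and 517 in the TAG/TAG library.

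**Figure D2:**
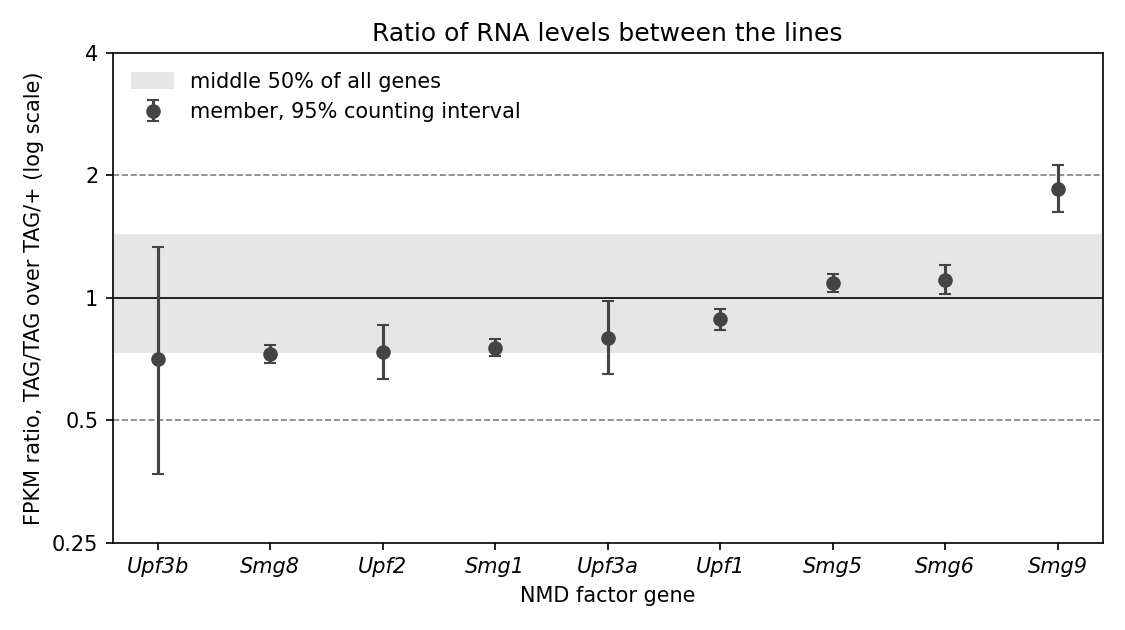
Ratio of FPKM, TAG/TAG over TAG/+ (log axis), for the 9 members in ascending order of the ratio, with 95% counting intervals, the middle 50% of all genes as a grey band and the 2-fold limits as dashed lines. Of the 9 points, 6 lie below 1 and 3 above, the interval of *Upf3b* (0.368 to 1.34) spans 1, and *Smg9* at 1.86 stands above the grey band.

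FPKM divides reads by a gene length, and for several members the order of levels turned on which length that was. The deposited values fitted the mean length of all annotated transcripts of a gene, which is short where many partial or intron-retaining transcripts are annotated. For *Smg1* that mean was 4327 nt over 10 transcripts, 5 of them annotated as retained introns, while the principal coding transcript has 15557 nt. The principal transcript was 3.09 times the mean for *Smg5*, 2.51 times for *Smg6* and 2.07 times for *Smg9*, and it was 1.01 times the mean for *Upf1*. The ratios between the lines do not depend on this length, but comparisons between genes do.

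On the scale of the deposited FPKM the mean of both lines fell in the order *Smg5* (190.3), *Smg8* (117), *Smg1* (75.4), *Smg6* (44.6), *Smg9* (41.4), *Upf1* (41.1), *Upf2* (10.7), *Upf3a* (7.40) and *Upf3b* (1.03), a span of 184-fold. The ranges over the 2 lines overlapped for 2 of the 8 neighbouring pairs, *Smg6* with *Smg9* and *Smg9* with *Upf1*. Recomputed per length of the principal transcript, the order was *Smg8* (79.5), *Smg5* (61.6), *Upf1* (40.7), *Smg1* (20.97), *Smg9* (20.03), *Smg6* (17.7), *Upf3a* (8.26), *Upf2* (5.90) and *Upf3b* (0.834), a span of 95.3-fold. Here *Smg1* and *Smg9*, and *Smg9* and *Smg6*, overlapped. *Upf1* moved from the sixth place to the third, and *Upf2* and *Upf3a* changed places, as did *Smg5* and *Smg8*. *Upf3b* was the lowest under both lengths, and *Smg5* and *Smg8* were the 2 highest under both.

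**Figure D3:**
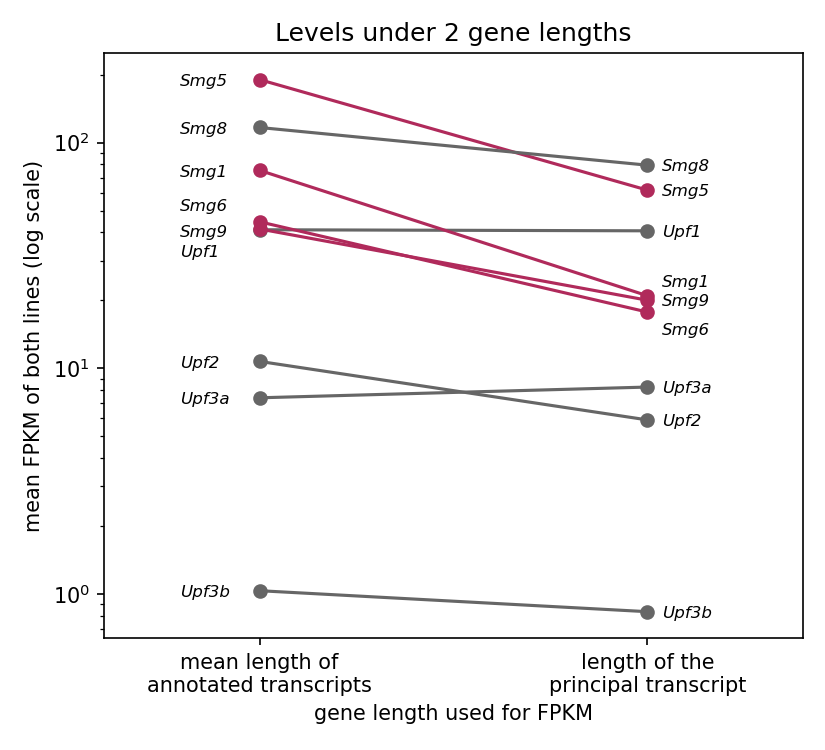
Mean FPKM of both lines (log axis) for each member with the mean length of annotated transcripts, as in the deposited values (left), and with the length of the principal coding transcript (right). The red lines are *Smg1*, *Smg5*, *Smg6* and *Smg9*, whose principal transcript is more than 2 times the mean length, and *Smg1* drops from 75.4 to 20.97 while *Upf1* stays near 41.

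Half-lives were available for 3 of the UPF genes. *Upf1* mRNA had a half-life of 280.1 min in the TAG/+ line and 255 min in the TAG/TAG line, longer than the median of all transcripts in each. *Upf2* mRNA had 113 and 168 min, and *Upf3b* mRNA had 134 and 104 min, both shorter than the median in each line. In the TAG/+ line 9.63% of all transcripts were shorter lived than *Upf2*, and in the TAG/TAG line 9.30% were shorter lived than *Upf3b*. The order of these 2 mRNAs was reversed between the lines. The half-life of *Upf3b* came from a gene with 25 and 19 RNA-seq reads, and only 5.76% of the genes in its level group (genes were divided by mean FPKM into 10 groups of equal size) had a half-life at all.

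The SMG mRNAs with a half-life fell into those below the median of all transcripts in both lines and those below it in the TAG/+ line alone. *Smg1* mRNA had a half-life of 142 min in the TAG/+ line and 115 min in the TAG/TAG line, and *Smg6* mRNA had 205 and 179.8 min, all below the medians. *Smg8* mRNA had 147 min in the TAG/+ line and 272 min in the TAG/TAG line, a ratio of 1.85. *Smg5* mRNA had 181 and 264 min, a ratio of 1.46. *Smg5* and *Smg8* were thus below the median of all transcripts in the TAG/+ line and above it in the TAG/TAG line. No error of the fitted half-lives was used here, and the size of a difference that 2 fits of the same line would give is unknown.

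**Figure D4:**
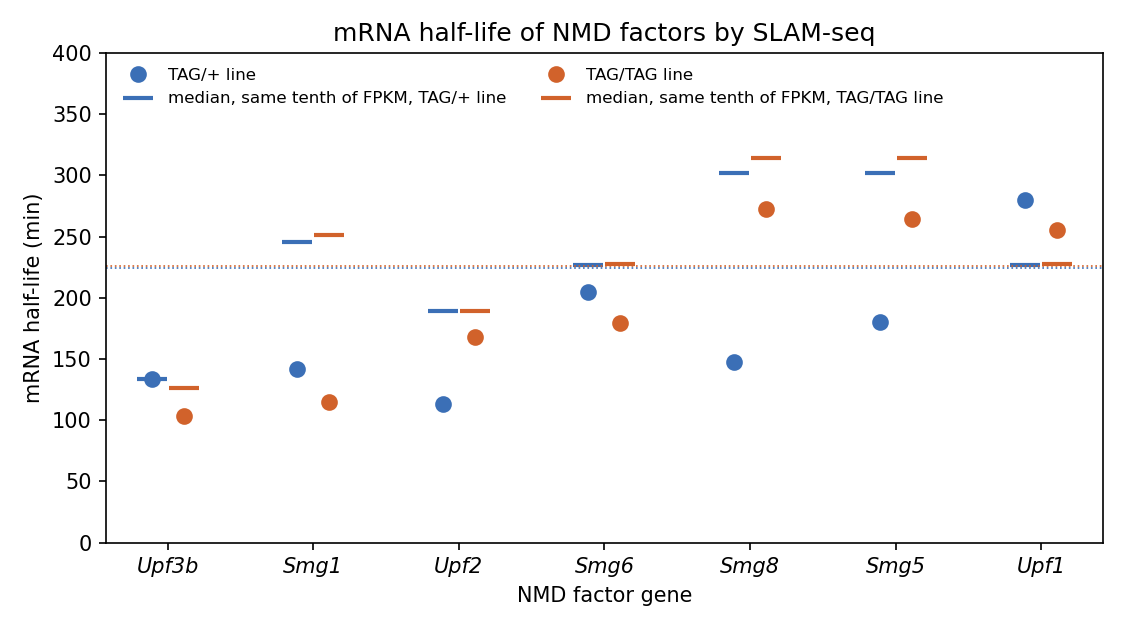
Half-life in minutes of the 7 members with a value, in ascending order of the mean, in the TAG/+ line (blue) and the TAG/TAG line (orange), 1 value per transcript and line. The dotted lines are the medians of all transcripts (224 and 226 min) and the short bars are the medians of transcripts in the same one of 10 groups of equal size by mean FPKM. *Upf2*, *Smg1*, *Smg5*, *Smg6* and *Smg8* lie below their bars in both lines, and *Upf1* lies above its bars.

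By the mean of both lines the half-lives ran from 119 min for *Upf3b* through *Smg1* (128 min), *Upf2* (140.4 min), *Smg6* (192 min), *Smg8* (209.8 min) and *Smg5* (222 min) to 268 min for *Upf1*, a 2.26-fold span. The ranges over the 2 lines overlapped for 5 of the 6 neighbouring pairs, and *Smg6* and *Upf2* were the pair that stood apart. The members formed a shorter-lived group of *Upf3b*, *Smg1* and *Upf2*, with no value above 168 min, and a longer-lived group of *Smg6*, *Smg8*, *Smg5* and *Upf1*, of which *Smg8* alone had a value under 168 min.

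The median half-life of the 7 mRNAs was 147 min in the TAG/+ line and 179.8 min in the TAG/TAG line, against 224 and 226 min for all transcripts, whose quartiles were 162 and 289 min and 159 and 299.8 min. Of the 7 mRNAs 4 were below the median in both lines (*Upf2*, *Upf3b*, *Smg1* and *Smg6*), and the background was 39.8% of all transcripts. *Upf1* was above it in both. Between the lines 1 of the 7, *Smg8*, differed by 1.5-fold or more, against a background of 20.7% in either direction, and none by 2-fold, against 6.72%. The half-lives of 3 mRNAs were longer in the TAG/TAG line and those of 4 were shorter, with a median log2 ratio of -0.13, while 54.1% of all transcripts were longer and their median log2 ratio was 0.04. The difference of *Smg8* was exceeded by 9.28% of transcripts, that of *Upf2* by 21.4% and that of *Smg5* by 23.5%.

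Across the 5152 transcripts with both measures, a higher level went with a longer half-life (Spearman's rho 0.511, a description across transcripts that share libraries), so the members were also set beside transcripts of like level. *Smg1* mRNA, at 142 and 115 min, was in the ninth of 10 groups of equal size by mean FPKM, where the medians were 245 and 251 min. *Smg5* (181 and 264 min) and *Smg8* (147 and 272 min) were in the top group, where the medians were 302 and 314 min. *Upf2* (113 and 168 min) was set against 189 and 189 min. *Smg6* (205 and 179.8 min) and *Upf1* (280.1 and 255 min) shared a group with medians of 227 and 228 min. *Upf3b* (134 and 104 min) was in a group with medians of 133 and 126 min. In this comparison 5 of the 7 members were below the median of their group in both lines, *Upf2*, *Smg1*, *Smg5*, *Smg6* and *Smg8*, and the background was 38.3%. With levels taken per length of the principal transcript, a choice made after seeing the data, *Upf3b* joined them and the count was 6, with a background of 38.0%. On that scale *Smg1* was in group 8 of 10, with medians of 227 and 229 min, and was still below both.

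**Figure D5:**
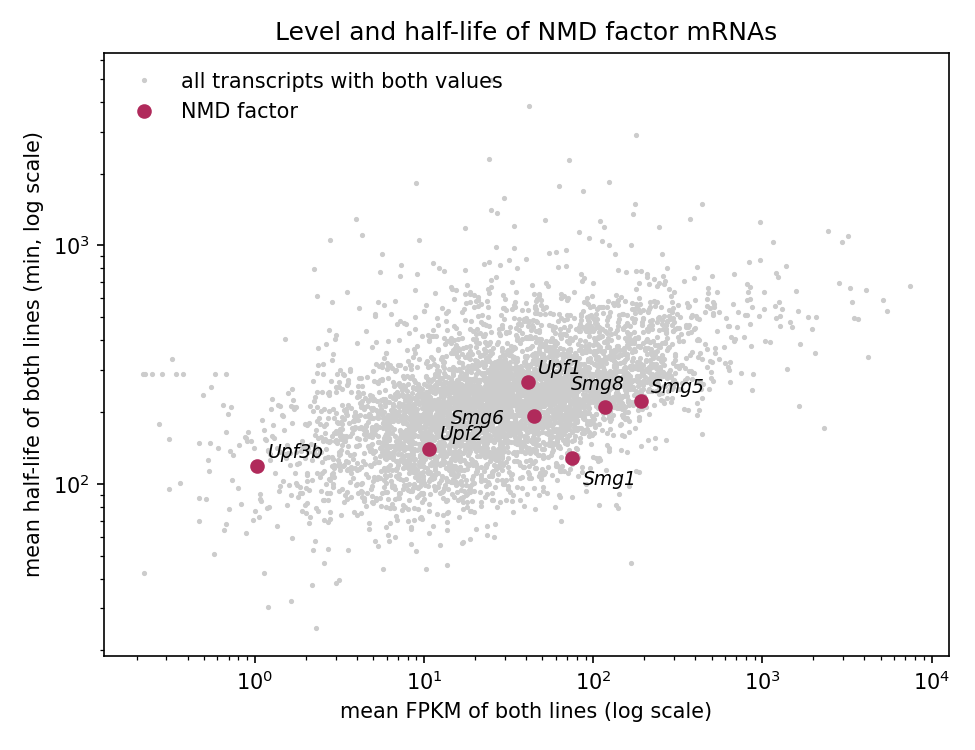
Mean half-life of both lines (min, log axis) against mean FPKM of both lines (log axis) for the 5152 transcripts with both values (grey), with the 7 NMD factor mRNAs in red. The cloud rises to the right (rho 0.511), and *Upf1* at 41.1 FPKM and 268 min lies above its centre. *Smg1*, at a deposited level of 75.4 FPKM and 128 min, lies at its lower edge. Per length of the principal transcript the level of *Smg1* is 20.97.

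Level and half-life did not always differ between the lines in the same direction. *Smg8* had the longer half-life in the TAG/TAG line, 272 against 147 min, but the lower level, 98.4 against 135 FPKM. *Upf2* likewise had 168 against 113 min and 9.09 against 12.4 FPKM. *Smg6* had the shorter half-life in the TAG/TAG line and a level that was higher by a ratio of 1.11. In all, level and half-life differed in opposite directions for 3 of the 7 members, and this was so for 50.4% of all transcripts. *Smg5* was higher and longer lived in the TAG/TAG line, and *Upf1*, *Upf3b* and *Smg1* were lower and shorter lived.

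The annotated features that make an mRNA a target of NMD were counted in the principal transcripts. An upstream reading frame that ends before the start codon of the protein was present in *Smg5*, where its AUG lies 121 nt before the start codon and it runs for 30 codons, and in *Smg9*, where the AUG lies 272 nt before and it runs for 35 codons. These are 22.2% of the members, and 44.4% of the 12538 coding genes had one. *Upf2* and *Smg1* had an upstream AUG, 38 and 20 nt before the start codon, whose frame runs for 12 and 6 codons. In both, the stop codon of this frame overlaps the first base of the start codon, so they were not counted above. No member had an exon junction 50 nt or more after the stop codon, a feature that 0.471% of the coding genes had.

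Most 3′ UTRs of the members were of common length, but that of *Smg1* was long. That of *Smg8* was short, and 14.2% of the coding genes had a shorter one. The median was 958 nt against 1016 nt for all coding genes. *Smg1* had 4233 nt, longer than 93.7% of the coding genes, followed by *Smg6* with 1498, *Upf2* with 1261, *Smg5* with 1230, *Upf1* with 958, *Upf3b* with 834, *Upf3a* with 719, *Smg9* with 400 and *Smg8* with 221 nt. The gene with the longest 3′ UTR, *Smg1*, had half-lives of 142 and 115 min, and *Smg8*, with the shortest one, had 147 and 272 min. Between these lengths *Smg6* had 205 and 179.8 min and *Upf3b*, with a shorter 3′ UTR than *Smg6*, had 134 and 104 min. The half-lives of the members thus did not follow the order of 3′ UTR length in either line. The median coding sequence was 3054 nt against 1386 nt. That of *Smg1* was longer than 99.5% of the others, whereas *Upf3a* (1269 nt), *Upf3b* (1419 nt) and *Smg9* (1563 nt) were near the median of all coding genes. A transcript annotated as an NMD substrate was listed for *Smg1*, *Smg5* and *Smg6* (33.3% of the members and 26.4% of all coding genes), and one with a retained intron for 5 members (55.6% and 55.0%). Exon bases of *Upf1* are shared with *Cers1* and *Gdf1*, and those of *Smg6* with *Srr* and *Gm12333*, on the opposite strand. Whether strand was used in counting is not given in the sources used here, so the reads there cannot be assigned with certainty.

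The 6 members reported in other cells as feedback targets of NMD are *Upf1*, *Upf2*, *Upf3b*, *Smg1*, *Smg5* and *Smg6*. Their median half-life was 161 min in the TAG/+ line and 174 min in the TAG/TAG line, and 4 of the 6 were below the median of all transcripts in both lines, against 39.8% of all transcripts, with *Upf1* above it in both. Of the other 3 members only *Smg8* had a half-life, so the groups could not be compared.

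Transcripts known as NMD substrates in other cells were mostly without values here. Of 10 listed, 4 had a half-life, and all 4 were below the median in both lines, against 39.8% of all transcripts. *Atf4*, a stress-response transcription factor with upstream reading frames, had 92.4 and 99.8 min, and *Ddit3*, which it activates, had 106 and 105 min. *Gadd45a*, a growth arrest gene, had 82.3 and 149 min, and *Tbl2* had 134 and 169 min. *Upf2* and *Upf3b* were within the range of these 4 transcripts in each line, and *Smg1* was within it in the TAG/TAG line and above it in the TAG/+ line (142 against 134 min for *Tbl2*). *Atf3* was at an FPKM of 0.562 and 1.91, on 9 and 33 reads, the one past 2-fold of 4 listed substrates with a level. In this direction 13.5% of all genes were past 2-fold.

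The mRNAs of exon junction proteins had a longer median half-life than those of the NMD factors, with exceptions. Of the exon junction complex and its partners, 10 genes listed, 7 had a half-life, with medians of 315 and 349 min. Of these, 6 of the 7 were above the median of all transcripts in both lines, as were 2308 of all 5806 transcripts. *Eif4a3*, the helicase that anchors the complex, was the most abundant at 399 and 376 FPKM, with 295 and 286 min, and *Acin1* was the longest lived at 512 and 588 min. *Pnn* was the shortest lived at 248 and 211 min, below *Upf1* in both lines. In level 2 of 9 were past 2-fold and lower in the TAG/TAG library, *Magohb* (5.99 and 0.878) and *Sap18* (89.3 and 26.1), against 9.59% of all genes. The values of *Magohb* rest on 38 and 6 reads.

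Of 14 genes of translation termination and other NMD cofactors, 9 had a half-life, with medians of 288 and 304 min. Of these, 5 were above the median of all transcripts in both lines and 2 below it. Among all 5806 transcripts 2308 were above it in both lines and 2308 below. *Pabpc1*, the cytoplasmic poly(A)-binding protein, was at 748 and 658 FPKM, and *Gspt2* was the lowest by the mean of both lines at 10.5 and 12.9. *Pnrc2*, which links UPF1 to decapping, was the shortest lived at 135 and 145 min. *Etf1*, the release factor that recognises stop codons, had 197 and 304 min, and *Ruvbl1* had 371 and 621 min. They were the 2 past 1.5-fold in this list, against 20.7% of all transcripts in either direction. *Ncbp2*, a cap-binding protein, was at 23.0 and 10.1 FPKM, the one gene of 13 past 2-fold, against 9.59% of all genes in its direction.

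The enzymes that finish the decay had half-lives closer to those of the NMD factors. In CCR4-NOT, the deadenylase complex, and its TOB and BTG partners, 13 of 15 genes had a half-life, with medians of 161 and 182 min, and 9 of the 13 were below the median of all transcripts in both lines, against 39.8% of all transcripts. By the mean of both lines *Tob1* was the shortest lived (86.1 and 83.3 min) and *Cnot10* the longest (456 and 251 min). The 3 past 1.5-fold were *Cnot10*, *Btg1* (125 and 81.5 min) and *Btg2* (106 and 196 min), of which *Cnot10* and *Btg1* were shorter and *Btg2* longer in the TAG/TAG line, and 20.7% of all transcripts were past this limit. By mean level *Cnot9* was highest (233 and 251 FPKM), *Cnot6* lowest (5.74 and 8.91), and *Cnot8* (7.46 and 15.3) and *Tob1* (7.89 and 18.9) were the 2 of 14 past 2-fold, both higher in the TAG/TAG library, against 13.5% of all genes.

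Of 13 genes of decapping and 5′-3′ decay, 11 had a half-life, with medians of 202 and 232 min. Of these, 5 were below the median of all transcripts in both lines and 3 above, against 2308 below and 2308 above among all 5806 transcripts. The 3 past 1.5-fold were all longer in the TAG/TAG line, *Dcp1b* (96.1 and 259 min), *Patl1* (124 and 232 min) and *Xrn2* (290.3 and 523 min), where 20.7% of all transcripts were past the limit in either direction. *Pan3* was the shortest lived by the mean (116 and 136 min) and *Xrn2* the longest. *Edc4*, a scaffold of decapping, was the most abundant by the mean of both lines (135 and 159 FPKM), *Dcp2*, the decapping enzyme, the least (8.14 and 6.79), and none of 12 was past 2-fold. In these values the median half-life of the NMD factors, 147 and 179.8 min, lay close to that of CCR4-NOT listed with its TOB and BTG partners. It lay below those of the exon junction complex, the cofactors and the decapping genes in both lines. The medians of the CCR4-NOT list include these partners, and the *Cnot* genes alone were not set beside the other lists.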

How the data were processed

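RNA-seq and SLAM-seq tables of 1 TAG/+ and 1 TAG/TAG SSC line were analysed. FPKM values were computed by the authors, 1 library per line (50 bp single-end). The processing notes name kallisto and DESeq2 without versions, and the build is not given in the sources used here. Columns and tables were assigned to genotypes by their names, Gp and *tagplus* to TAG/+, GG and *tagtag* to TAG/TAG. The labels call the half-life tables CTL (TAG/+ samples) and EXP, so this assignment rests on the table names. No per-sample column was left unused. Half-lives in minutes were deposited as 1 value per transcript and line. The authors counted label conversions with SlamDunk, collapsed the technical replicates and used nls in R to fit first-order decay.

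Whole reads were recovered as FPKM times the mean transcript length (GENCODE M21, GRCm38) and the fitted scaling total of the library. They came out whole within 0.02 for 100% of 13884 genes, whereas merged exon lengths gave 22.5% and 21.9%. Recovery and intervals were run on simulated reads drawn with counting error alone. This checks the code and not how libraries of the same line would vary. Intervals are exact Poisson for levels and conditional Clopper-Pearson for ratios. A pseudocount of 0.1 was used, with calls at 2-fold in FPKM and 1.5-fold in half-life. No count test was run, since 1 library per line leaves no replicates. The named genes are all members and, of each other list, the highest and lowest level, the shortest and longest half-life and those past a fold limit, and further genes named were chosen after their values were seen. One gene that the rule listed is not reported here. Members and lists were chosen with earlier results of these data known. The motif was searched in annotated 3′ UTRs, and the printed windows were checked against the RefSeq GRCm38 sequence. Python 3.11.15, numpy 2.4.6, pandas 2.3.3, scipy 1.17.1 and matplotlib 3.10.9 were used. The 4 CRAC libraries (2 of each group) were not analysed here.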

Additional observations from a re-analysis of the deposited data

How the results depend on the processing

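Of 44 alternative values, 41 kept their direction and were counted as unchanged (within 1.5 times for a count), and none was reversed. The 3 counted as moved follow from the construction of the alternative. With a limit of 1.5-fold in place of 2-fold, 1 member (*Smg9*) was past the limit in FPKM in place of 0. With a limit of 2-fold in place of 1.5-fold, 0 members were past it in half-life in place of 1 (*Smg8*). With the length of the principal transcript, chosen after seeing the data, the span of the mean FPKM was 95.3-fold in place of 184-fold. The median log2 FPKM ratio of the members ranged from -0.32 to -0.25 over the alternatives. The log2 FPKM ratio of *Upf3b*, counted as unchanged, went from -0.46 to -0.25 with a pseudocount of 1 FPKM. No replicate could be left out, since each line had 1 library and 1 set of half-lives. The depth limits *Upf3b*, with 25 and 19 reads, and the depth behind the half-lives is unknown.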
